A study of Sus scrofa with 15 samples.

Results

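The respiratory chain genes described here are the nuclear genes for subunits of complexes I to V of the mitochondrial inner membrane, chosen by symbol: names starting with NDUFA, NDUFB, NDUFC, NDUFS or NDUFV and a number, SDHA to SDHD, names starting with UQCR, COX4 to COX8 with a letter, CYC1, and names starting with ATP5, leaving out NDUFA4L2. The rule found 68 of the 26654 genes in the deposited tables. They were 36 genes of complex I, 4 of complex II, 2 of complex III, 9 of complex IV and 17 of complex V. COX8H, with 0 to 3 counts per library, was dropped by the filter on low counts, and the other 67 were tested in every comparison. Complexes III and IV are covered only in part. NDUFAB1, a complex I subunit, does not match the rule and is counted below with the assembly factors. Other subunits without a matching symbol in the tables were not analysed here.

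The samples are from the penile corpus cavernosum, the erectile tissue of the penis, of pigs (Sus scrofa), whose polyadenylated RNA was sequenced in a study on a bionic corpus cavernosum. It has 5 groups of 3 libraries: normal tissue, a defect group, implantation A, implantation B and an ECs+ implantation group. The study's design compares implantation A, defect and normal pairwise, and ECs+ implantation with implantation B. The labels do not say what the implant was, how implantation A and B differ, what ECs stands for, the animals' strain or age, or the time of sampling. Nor do they tie each library to an animal of its own. The p-values therefore set group differences against the spread of these libraries only, and that spread can be technical. Chi-square per degree of freedom sets the variance between a pair of libraries against that of counting error alone. It was 1.45 to 1.74 in implantation B and 1.57 to 2.002 in implantation A. In ECs+ it was 2.31 to 2.78 and in normal 2.36 to 5.81. The 1.25 to 1.29 in defect involves libraries with few counts. Whether the spread is technical was not tested. The 3 ECs+ libraries were assigned by their titles, because a second line of their description names the third normal sample instead.

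The respiratory chain moves electrons from NADH (complex I) and succinate (complex II) through ubiquinone and complex III to cytochrome c and complex IV, which reduces oxygen. Complexes I, III and IV pump protons, and complex V, the ATP synthase, uses the gradient to make ATP. Most subunits are encoded in the nucleus and the rest in mitochondrial DNA. Smooth muscle of the corpus cavernosum, its endothelium and its fibroblasts all carry mitochondria, so a bulk level sums over these cells. In such bulk samples, fewer cells of a type and less RNA per cell cannot be told apart.

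Library totals were 17234169 to 19644793 counts in 13 libraries but 207769 in defect 1 and 250178 in defect 2. In defect 1 the median member had 5 counts and 51 of the 68 had under 10, and in defect 2 the median was 7 and 42 had under 10, against 448.5 in defect 3. A count of 3, the limit that a count of 0 allows, corresponds to 14.0 CPM (counts scaled to a common library total) in defect 1 and 12.0 in defect 2. Over the tested members the median coefficient of variation between libraries was 31.2% in the defect group and 3.55% to 5.81% in the other 4. The defect group's results therefore rest mainly on defect 3. Levels below are CPM after TMM scaling (a factor per library that centres the bulk of genes), or TPM where genes are compared with each other, since TPM is per transcript length.

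Markers of cell types also differed between the groups. The summed level of 8 fibroblast markers was 15206 to 15628 CPM in normal, 132357 to 163053 in defect, 69469 to 69583 in implantation A, 142017 to 144840 in implantation B and 16835 to 16983 in ECs+. The 10 contractile smooth muscle markers summed to 6166 to 6231 CPM in implantation A and 2934 to 4514 elsewhere. The 10 endothelial markers summed to 4034 to 4320 CPM in normal, 3869 to 3984 in ECs+ and 1889 to 2848 in the other 3 groups. The 6 keratinocyte markers found in the table summed to 2.80 to 3.29 CPM in ECs+ and 1029 to 5421 in the other 12 libraries, and KRT5 had 0 CPM in 2 ECs+ libraries and 0.220 in the other. The 8 macrophage markers summed to 253 to 267 CPM in normal, 785 to 1037 in defect, 318 to 323 in implantation A, 752 to 760 in implantation B and 292 to 300 in ECs+. The 7 pericyte markers summed to 1185 to 1216 CPM in ECs+ and 1747 to 2527 elsewhere, and the 9 adipocyte markers to 110 to 118 CPM in normal, 89.9 to 91.1 in implantation A and 46.7 to 61.7 in the other 3 groups. Such sums can hide opposite moves. In ECs+ against implantation B 3 pericyte markers were higher and 4 lower (edgeR adjusted p under 0.05). In ECs+ against normal 2 pericyte markers were higher and 3 lower. Fibroblast markers had 5 and 3 there, and macrophage markers 4 and 3, beside 35.7% and 35.6% of all genes. Of 10 skeletal muscle markers, 6 were under 1 CPM in all 15 libraries. All 10 smooth muscle and all 10 endothelial markers reached 1 CPM in at least 1 library. The part of these cell markers in the results below was not tested.

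In normal tissue the members spanned a wide range. COX7C, a small subunit of complex IV, had the highest level, 939 ± 31.9 TPM (SD, n = 3), followed by ATP5E, the epsilon subunit of the ATP synthase, with 714 ± 48.9 TPM and COX6A1 with 551 ± 15.7. At the low end NDUFS1, a core subunit of complex I, had 19.9 ± 2.28 TPM, NDUFA5 had 8.998 ± 0.987 and COX8H had 0.328 ± 0.568.

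The 68 genes together took 0.282%, 0.288% and 0.284% of all counts in the normal libraries, 0.342%, 0.334% and 0.340% in ECs+, 0.262%, 0.268% and 0.265% in implantation A, and 0.235%, 0.233% and 0.234% in implantation B. In the defect libraries the shares were 0.253% (95% exact Clopper-Pearson interval 0.232 to 0.275), 0.267% (0.248 to 0.288) and 0.252%. These intervals cover counting error only. The order of the groups below ECs+ depended on the scale. After TMM scaling the summed level was 2547 to 2618 CPM in normal, 2489 to 2542 in implantation A, 2615 to 2654 in implantation B and 2453 to 2981 in defect, while ECs+ lay at 3258 to 3356, above all other libraries. In summed TPM the ECs+ libraries were again highest, at 10804 to 11018, and the normal libraries, at 9440 to 9637, lay below implantation A (9986 to 10282) and defect (9956 to 10016). The implantation B mean was the lowest there, at 9326 TPM. No full order of the groups other than ECs+ held on all 3 scales. The defect mean was above that of implantation B on each of them (0.257% and 0.234%, 2704 and 2639 CPM, 9992 and 9326 TPM). In CPM, however, the libraries of these groups overlapped.

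**Figure D1:**
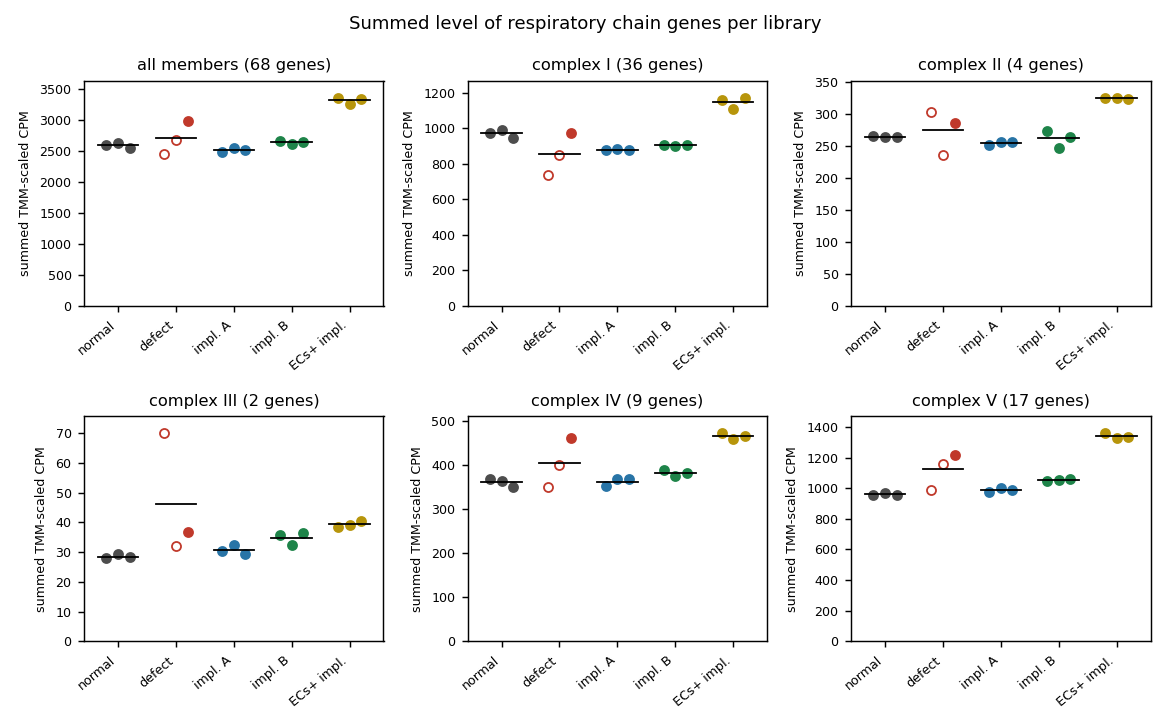
Summed TMM-scaled CPM (y axis) of all 68 respiratory chain genes and of each complex in the 15 libraries (points) of 5 groups (x axis), with the group mean as a line; hollow points are defect 1 and 2, which have 207769 and 250178 counts. The 3 ECs+ libraries lie above the other 12 for all members (3258 to 3356 CPM) and for complexes I, II and V, while defect 1 stands apart for complex III.

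The ECs+ implantation group was compared with implantation B, and here most subunit genes were higher in ECs+. Of 67 members, 44 rose and 5 fell by edgeR's quasi-likelihood test (adjusted p under 0.05), against 37.8% of all 17204 genes tested called higher and 38.1% called lower. That is 65.7% of members higher and 7.46% lower. The median log2 fold change was 0.35 for members and 0.02 for all genes. The changes were modest, with 17 members past 1.5-fold and 2 past 2-fold. The libraries of the groups did not overlap for 47 members in the higher direction (40.6% of all genes) and for 5 in the lower (37%). Scaling by library size alone gave 59 higher and 2 lower, with a median over all genes that was 0.24 higher. The gap between the medians of members and of all genes was 0.33 under each of the 3 scalings. A scaling shifts all genes by nearly the same amount, so this gap could hardly change and does not test the scaling. On log2(TPM + 1) 13 members were lower.

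In the defect group against normal, 30 members were called higher and 9 lower, where 32% of the 17855 genes tested were called higher and 31.9% lower. The median was 0.21 for members and -0.05 for all genes. This split turned with the scaling: by library size alone 11 were higher and 25 lower, as the median of all genes went down by 0.37, and DESeq2's size factors gave 22 and 13. The members' median was 0.26 to 0.27 above that of all genes under each scaling, a gap that again could hardly change. Without defect 3, 2 members were higher (ATP5A1 and ATP5L) and 4 lower (NDUFV1, NDUFV3, NDUFA10 and NDUFS8), and without defect 1 and 2, 33 were higher and 9 lower. The libraries did not overlap for 15 members in the higher direction (17% of all genes) and 10 in the lower (33.7%).

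Implantation A against defect gave 1 member higher, NDUFS8, and 30 lower, against 20.4% and 21.4% of all genes, with a median of -0.23 for members and 0.02 for all genes. By library size alone the split was 11 higher and 1 lower, with the median of all genes 0.31 higher. On log2(TPM + 1) 4 were higher. Without defect 3, 0 members were called by edgeR, with 4 at an unadjusted p under 0.05. The libraries did not overlap for 2 members in the higher direction (28.9% of all genes) and 10 in the lower (11.4%). NDUFS8 had 0.29 ± 0.11 (edgeR adjusted p = 0.026), a call lost without implantation A 1 (0.0722), implantation A 2 (0.0797) or defect 3 (0.262). The calls in this comparison therefore depended on the scaling and on 1 library. Of the called members, 6 changed sign by library size alone and 10 without defect 3. These comparisons with defect share libraries with the other ones, so their values are set side by side and not counted as separate support.

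Implantation A against normal had 17 members higher and 20 lower, with 32.2% and 32.3% of all genes called higher and lower. The median was -0.00 for members and -0.02 for all genes, so the members as a group were not displaced, and single genes moved both ways. The libraries did not overlap for 22 members in either direction (34.3% and 34.6% of all genes, higher and lower). On log2(TPM + 1) 10 were higher and 2 lower.

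Implantation B and ECs+ were also set against normal in a fit of all 15 libraries, although the design names no such pairs. Implantation B had 28 members higher and 21 lower (37.1% and 36.7% of 18316 genes), with a median of 0.10 for members and -0.03 for all genes. By library size alone it had 9 higher and 36 lower, with the median of all genes lowered by 0.31. Its libraries did not overlap with normal for 28 members above and 21 below (37.9% and 37.6% of all genes). Without normal 2, 14 were higher, and without normal 3, 16. ECs+ had 45 higher and 10 lower (35.7% and 35.6%), with a median of 0.42 and -0.02, 7 past 2-fold, and 41 higher and 15 lower by library size alone. Its libraries did not overlap with normal for 44 members above and 12 below (35.5% and 35.8%). Without normal 3, 16 were lower. On log2(TPM + 1) 22 were higher.

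**Figure D2:**
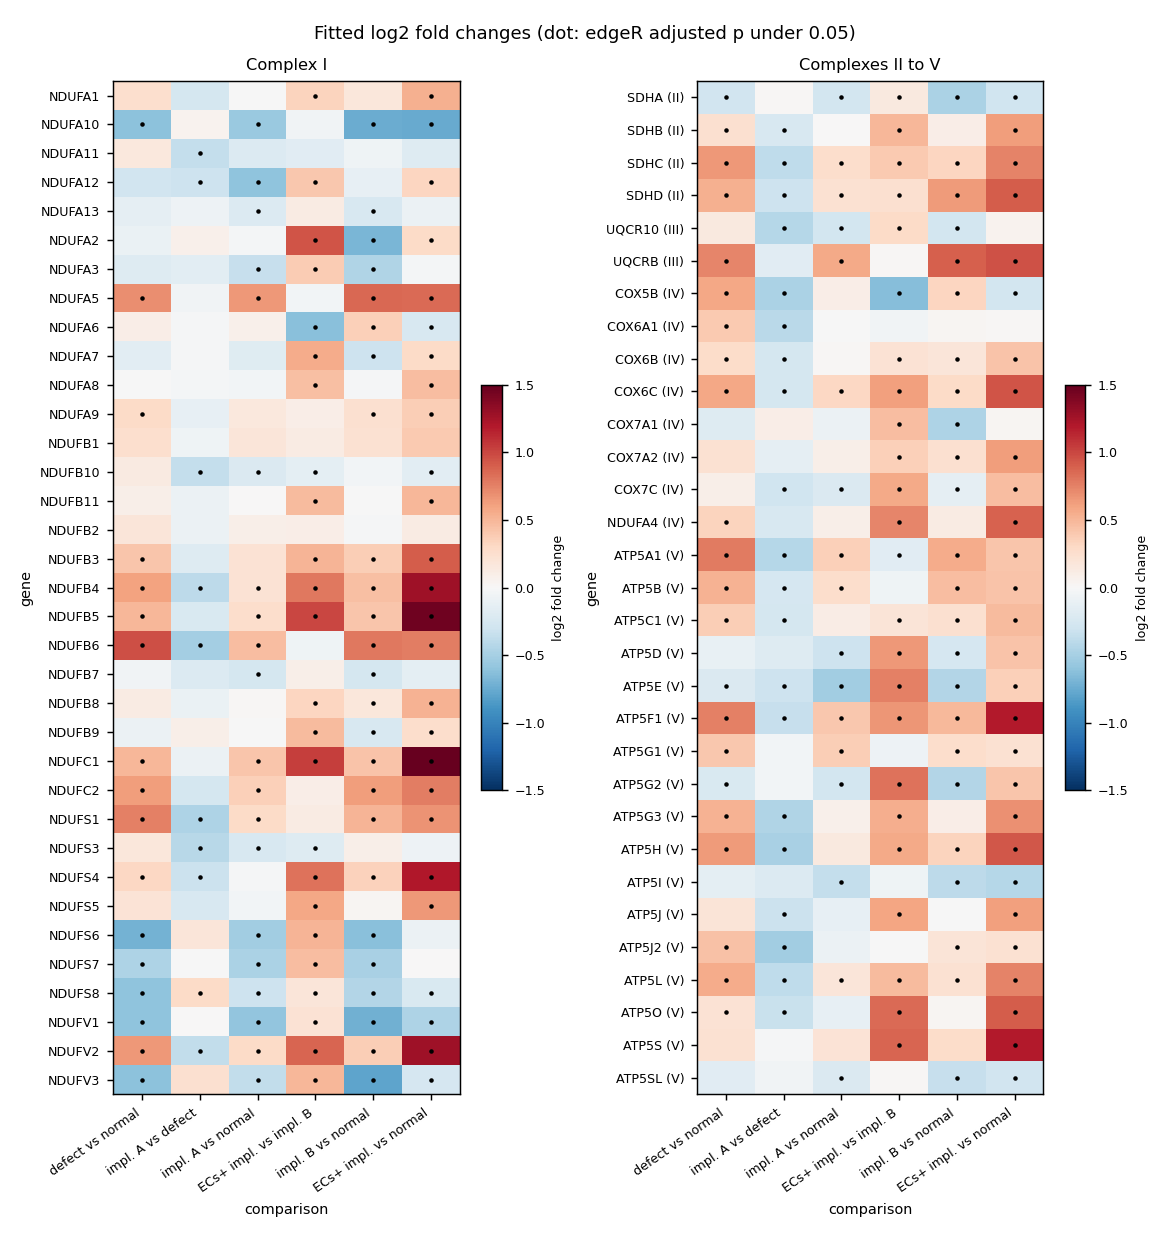
Fitted log2 fold changes (colour, red higher and blue lower in the first-named group) of tested genes (y axis, with the complex in brackets at right) in 6 comparisons (x axis); a dot marks an edgeR adjusted p under 0.05. Most genes are red in ECs+ against implantation B, with COX5B and NDUFA6 the deepest blue there, and NDUFS8 has the only higher call in implantation A against defect.

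Complex I oxidizes NADH at its peripheral arm, where NDUFV1 binds FMN and NADH and NDUFS1 carries iron-sulphur clusters. It has 7 core members here and 29 accessory ones. In ECs+ against implantation B 22 of 36 rose and 3 fell (61.1% and 8.33%, beside 37.8% and 38.1% of all genes). The accessory members had 17 higher and 2 lower of 29, the core members 5 higher and 1 lower of 7. In implantation A against normal 8 rose and 12 fell, in defect against normal 11 and 6, and in implantation A against defect 1 and 10. Implantation B against normal gave 13 and 12. The shares called lower in implantation A (33.3%) and higher in defect (30.6%), and both shares in implantation B (36.1% and 33.3%), were near those of all genes (32.3%, 32%, 37.1% and 36.7%). Those called higher in implantation A (22.2%) and lower in defect (16.7%) were below them (32.2% and 31.9%). In implantation A against defect 2.78% were higher and 27.8% lower, beside 20.4% and 21.4% of all genes.

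NDUFV1 (chromosome 2, 4958508 to 4964211, Sscrofa11.1) had 76.4, 81.5 and 77.0 CPM in normal, 42.0, 40.03 and 52.4 in defect, and 52.4, 51.4 and 52.0 in implantation A. It had 50.2, 45.3 and 47.5 CPM in implantation B and 53.4, 55.3 and 61.9 in ECs+. The 3 normal libraries lay above the other 12, without overlap. Against normal, the log2 fold change was -0.60 ± 0.09 (SE, edgeR adjusted p = 2.48e-08) in defect, -0.60 ± 0.06 (9.94e-14) in implantation A, -0.72 ± 0.06 (4.26e-18) in implantation B and -0.46 ± 0.06 (5.63e-11) in ECs+. All 4 comparisons share the normal libraries, and the defect value was -0.93 without defect 3 (adjusted p = 0.0132). ECs+ was above implantation B by 0.22 ± 0.06 (edgeR adjusted p = 0.000478), but on log2(TPM + 1) that difference was -0.02.

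NDUFS1 (chromosome 15, 109413726 to 109451813), in the same arm, went the other way. It had 26.7, 32.9 and 27.6 CPM in normal and 34.4, 35.8 and 35.9 in implantation A. It had 41.6, 38.5 and 44.2 CPM in implantation B, 44.4, 46.8 and 47.5 in ECs+ and 42.0, 60.1 and 48.7 in defect. Every library of the other groups was above the highest normal one. Against normal, the log2 fold change was 0.75 ± 0.11 in defect, 0.28 ± 0.08 in implantation A, 0.51 ± 0.07 in implantation B and 0.67 ± 0.07 in ECs+, with edgeR adjusted p of 1.43e-09, 0.00103, 1.55e-09 and 8.55e-14. In ECs+ against implantation B its value was 0.12 ± 0.06 and did not pass (adjusted p = 0.0583), though it did without implantation B 3 (0.0277) or ECs+ 1 (0.0301).

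The ratio of NDUFV1 to NDUFS1 in TPM needs no scaling between libraries. It was 4.98 ± 0.379 (SD, n = 3) in normal, 1.69 ± 0.405 in defect, 2.71 ± 0.0866 in implantation A, 2.13 ± 0.128 in implantation B and 2.29 ± 0.120 in ECs+. Its lowest normal library had 4.55 and the highest of the other 12 had 2.80. This and the other ratios were chosen after the genes' values were seen, so they are given without a test.

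Other complex I members kept to the direction of NDUFV1 or of NDUFS1 against normal in defect, implantation A and implantation B, 3 comparisons that share the normal libraries. NDUFA10, an accessory subunit of the membrane arm, was lower by log2 fold changes of -0.61 ± 0.10, -0.56 ± 0.07 and -0.74 ± 0.06. NDUFS6 had -0.70 ± 0.11, -0.52 ± 0.07 and -0.63 ± 0.07, and NDUFV3, an accessory subunit beside NDUFV1, had -0.62 ± 0.11, -0.37 ± 0.07 and -0.79 ± 0.07. The cluster-binding core subunits NDUFS7 (-0.46, -0.47 and -0.49) and NDUFS8 (-0.60, -0.31 and -0.44) fell as well. On the higher side stood NDUFB6 (0.97 ± 0.15, 0.46 ± 0.11 and 0.79 ± 0.11), NDUFA5 (0.69 ± 0.14, 0.65 ± 0.10 and 0.86 ± 0.09) and NDUFC2 (0.63, 0.36 and 0.63). All of these passed edgeR's test at an adjusted p under 0.05. Of these, NDUFA10, NDUFV3 and NDUFS8 also passed in defect without defect 3. The defect values of NDUFS1 without it (0.83, adjusted p = 0.0761), NDUFB6 (0.56, 0.596), NDUFA5 (0.94, 0.179), NDUFS6 (-0.74, 0.197) and NDUFS7 (-0.49, 0.523) no longer passed. NDUFC2 turned to -0.17 (0.859) without defect 3, and by library size alone it did not pass in defect (0.26, 0.0733). In ECs+ against normal NDUFA10, NDUFV3 and NDUFS8 were also called lower, and NDUFB6, NDUFA5 and NDUFC2 higher. NDUFS6 and NDUFS7 were not called there (0.01 for NDUFS7), and both rose in ECs+ over implantation B (0.50 and 0.46).

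In ECs+ over implantation B, the 2 largest rises in complex I were in accessory subunits of the membrane arm. NDUFC1 (chromosome 8, 87695273 to 87700024) had 24.0, 21.4 and 20.8 CPM in ECs+ and 9.80, 10.95 and 10.8 in implantation B. NDUFB5 (chromosome 13, 117656411 to 117671515) had 29.0, 28.2 and 28.7 CPM against 13.4, 13.6 and 14.7. Each ECs+ library lay far above the highest implantation B library. The log2 fold changes were 1.03 ± 0.10 (edgeR adjusted p = 7.39e-14) for NDUFC1 and 1.01 ± 0.08 (8.25e-16) for NDUFB5. NDUFA2 followed with 0.94 ± 0.09, NDUFV2, a core subunit of the NADH-binding module, with 0.87 ± 0.07, NDUFS4 with 0.81 ± 0.06 and NDUFB4 with 0.79 ± 0.08.

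The 3 members of complex I that fell in ECs+ over implantation B were NDUFA6, NDUFS3 and NDUFB10. NDUFA6 had 28.0, 30.0 and 28.0 CPM in implantation B and 18.7, 19.4 and 18.7 in ECs+. These libraries did not overlap, and the log2 fold change was -0.63 ± 0.08 (edgeR adjusted p = 2.46e-10), or -0.39 by library size alone. NDUFS3 (-0.19 ± 0.07) and NDUFB10 (-0.15 ± 0.06) changed little, had values of 0.04 and 0.09 by library size alone, and did not pass without ECs+ 2 (adjusted p = 0.0732 and 0.158). NDUFS3 was also lost without implantation B 3 (0.0595) and NDUFB10 without implantation B 2 (0.0529). NDUFA5 and NDUFB6 had -0.05 ± 0.08 and -0.06 ± 0.10 and did not pass, and by library size alone they had 0.19 and 0.18.

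**Figure D3:**
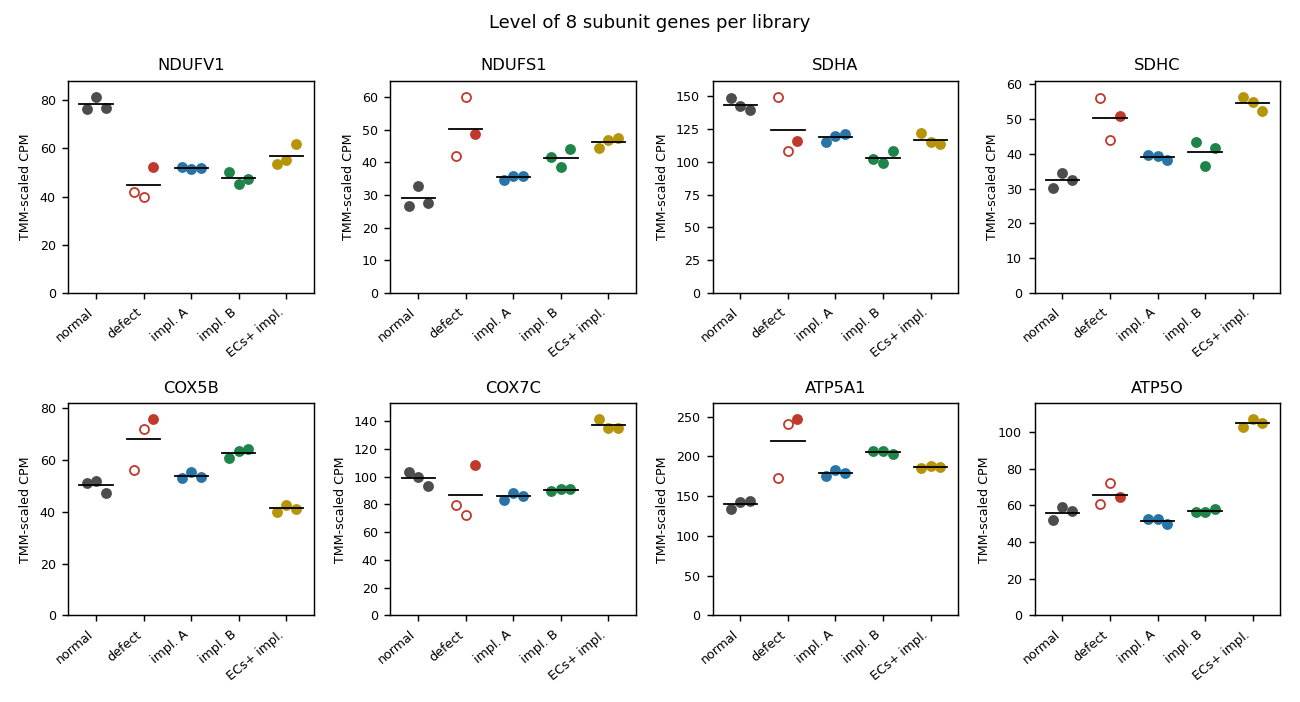
TMM-scaled CPM (y axis) of 8 subunit genes in the 15 libraries (points) of 5 groups (x axis), with group means as lines and hollow points for the shallow libraries defect 1 and 2. Normal libraries are highest for NDUFV1 (76.4 to 81.5 CPM) and lowest for NDUFS1 and ATP5A1, and ECs+ libraries are lowest for COX5B and highest for COX7C and ATP5O.

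Complex II, the succinate dehydrogenase of both the citric acid cycle and the chain, consists of SDHA (flavoprotein), SDHB (iron-sulphur protein) and the membrane anchors SDHC and SDHD. All 4 rose in ECs+ against implantation B, where 37.8% of all genes were called higher. In defect against normal 3 rose (75%, beside 32% of all genes) and SDHA fell (25%, beside 31.9%). In implantation A against defect 3 fell (75%, beside 21.4%). SDHA (chromosome 16, 79838442 to 79862956) had 148, 142 and 139 CPM in normal, 149, 108 and 116 in defect, and 115, 120 and 121 in implantation A. It had 102, 98.8 and 108 CPM in implantation B and 122, 115 and 114 in ECs+. The normal libraries lay above those of the other groups except defect 1, a library in which 3 counts are 14.0 CPM. Against normal, SDHA had log2 fold changes of -0.29 ± 0.08 in defect, -0.27 ± 0.06 in implantation A, -0.48 ± 0.05 in implantation B and -0.29 ± 0.05 in ECs+, with edgeR adjusted p from 5.83e-14 to 0.00119.

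SDHC had 30.3, 34.5 and 32.4 CPM in normal, 56.1, 44.0 and 50.9 in defect and 39.6, 39.2 and 38.1 in implantation A. It had 43.3, 36.5 and 41.7 CPM in implantation B and 56.4, 54.8 and 52.3 in ECs+. The normal libraries were the lowest of all. The log2 fold changes against normal, in the order defect, implantation A, implantation B and ECs+, were 0.65 ± 0.10, 0.26 ± 0.07, 0.32 ± 0.07 and 0.75 ± 0.07. SDHD had 0.53, 0.23, 0.64 and 0.91, and SDHB 0.24, 0.00, 0.10 and 0.63, of which the middle values did not pass. SDHB passed in implantation B without normal 1 (0.15, edgeR adjusted p = 0.0455). By library size alone the calls of SDHB in defect (-0.12, edgeR adjusted p = 0.244), SDHC in implantation B (0.012, 0.88) and SDHD in defect (0.17, 0.078) were lost. SDHB in implantation B, not called after TMM scaling, had -0.21 by library size and passed as lower (0.00214). Without defect 3 the defect values of SDHA (-0.17, adjusted p = 0.578), SDHB (0.05, 0.922), SDHC (0.61, 0.198) and SDHD (-0.0047, 0.993) did not pass.

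The TPM ratio of SDHA to SDHC was 2.37, 2.03 and 2.12 in normal and 1.04 to 1.52 in the other 12 libraries. In ECs+ over implantation B, SDHB rose by 0.50 ± 0.06, SDHC by 0.39 ± 0.06, SDHD by 0.24 ± 0.05 and SDHA by 0.15 ± 0.04 on the log2 scale (edgeR adjusted p 3.36e-11, 5.17e-08, 8.62e-06 and 0.000986).

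Complex III passes electrons from ubiquinol to cytochrome c. It is represented by UQCRB, which takes part in the ubiquinone-binding region, and the small subunit UQCR10. UQCRB (chromosome 4, 40403272 to 40409080) had 9.49, 12.0 and 11.3 CPM in normal and 16.4, 16.7 and 15.5 in implantation A. It had 20.9, 19.4 and 20.7 CPM in implantation B, 20.5, 20.8 and 22.2 in ECs+ and 28.0, 16.0 and 17.9 in defect. The normal libraries were below all others. Against normal the log2 fold change was 0.73 ± 0.15 in defect, 0.56 ± 0.11 in implantation A, 0.90 ± 0.10 in implantation B and 0.95 ± 0.10 in ECs+ (edgeR adjusted p 1.28e-05, 2.45e-06, 3.18e-13 and 1.83e-14). Without defect 3 the defect value was 0.98 and did not pass (adjusted p = 0.216).

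UQCR10 did not follow UQCRB. It had 18.5, 17.4 and 17.0 CPM in normal, 14.1, 15.6 and 13.9 in implantation A and 15.002, 12.9 and 15.7 in implantation B. In ECs+ it had 18.0, 18.3 and 18.2 CPM and in defect 42.0, 16.0 and 19.0. It fell against normal in implantation A (-0.28 ± 0.10, edgeR adjusted p = 0.0105) and implantation B (-0.27 ± 0.10, 0.0103), and rose in ECs+ against implantation B (0.29 ± 0.09, 0.00502). The first of these was lost without implantation A 1 (adjusted p = 0.0611) or implantation A 3 (0.0676). The value in implantation B was lost without implantation B 2 (0.117) or normal 1 (0.114), and the rise in ECs+ over implantation B without implantation B 2 (0.0722). UQCRB had 0.02 ± 0.08 in ECs+ against implantation B.

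Complex IV, cytochrome c oxidase, has its catalytic subunits in mitochondrial DNA, and the nuclear subunits surround them. NDUFA4, named for complex I, is now counted as a subunit of complex IV. In ECs+ against implantation B 6 of 8 tested members rose and COX5B fell (75% and 12.5%, beside 37.8% and 38.1% of all genes). In defect against normal 5 rose, in implantation A against defect 5 fell, and in implantation A against normal 1 rose and 1 fell. The last were 12.5% each way, below the 32.2% and 32.3% of all genes. The 62.5% higher in defect and the 62.5% lower in implantation A against defect stood beside 32% and 21.4%.

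COX5B (chromosome 3, 56630297 to 56632107) had 60.7, 63.4 and 64.1 CPM in implantation B and 40.01, 42.7 and 41.3 in ECs+. It had 51.3, 52.0 and 47.3 CPM in normal, 53.0, 55.5 and 53.3 in implantation A and 56.1, 72.1 and 75.8 in defect. The ECs+ libraries were the lowest of the 15. In ECs+ over implantation B the log2 fold change was -0.64 ± 0.05 (edgeR adjusted p = 2.28e-15), or -0.40 by library size alone. Against normal, COX5B rose in defect (0.57 ± 0.09, adjusted p = 3.17e-08), fell in ECs+ (-0.28 ± 0.06, 3.33e-05) and did not pass in implantation A (0.10 ± 0.07, 0.181). In implantation B it had 0.32 ± 0.06, which was 0.01 by library size alone and 0.12 without normal 3 (adjusted p = 0.0521). Without defect 3 the defect value was 0.37 and did not pass (0.404).

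COX7C showed the reverse in ECs+ against implantation B: it had 141, 135 and 135 CPM in ECs+ and 89.5, 91.2 and 90.9 in implantation B, without overlap. Its log2 fold change was 0.56 ± 0.04 (edgeR adjusted p = 7.31e-19). The TPM ratio of COX5B to COX7C was 0.222 to 0.251 in the ECs+ libraries, 0.399 to 0.420 in normal, 0.498 to 0.513 in implantation A, 0.542 to 0.569 in implantation B and 0.564 to 0.800 in defect. COX6C rose by 0.61 ± 0.05 in ECs+ over implantation B and NDUFA4 by 0.73 ± 0.07 on the log2 scale. COX6A1, among the 3 most abundant members in normal TPM, had -0.05 ± 0.04 in ECs+ over implantation B and 0.03 ± 0.05 in implantation B against normal, and passed in neither (adjusted p = 0.248 and 0.572). Without normal 3 the latter was -0.16 (0.00157).

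COX7A1 and COX7A2 are alternative forms of one subunit, the first known from heart and skeletal muscle. COX7A1 made up 53.9% ± 2.41 (SD, n = 3) of their summed level in normal, 50.8% ± 3.01 in implantation A, 41.4% ± 1.81 in implantation B and 44.1% ± 3.57 in ECs+. The defect libraries gave 0%, 37.0% and 46.7%, with 0 and 2 counts of COX7A1 behind the first pair. In exact two-sided permutation tests of the share over 6 comparisons, p was 0.1 to 0.3 and the adjusted p 0.15 to 0.3, where 3 libraries against 3 cannot go below 0.1. By the fit over all genes, COX7A1 fell in implantation B against normal (-0.47 ± 0.13, edgeR adjusted p = 0.0011) and rose in ECs+ over implantation B (0.46 ± 0.13, 0.00143).

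**Figure D4:**
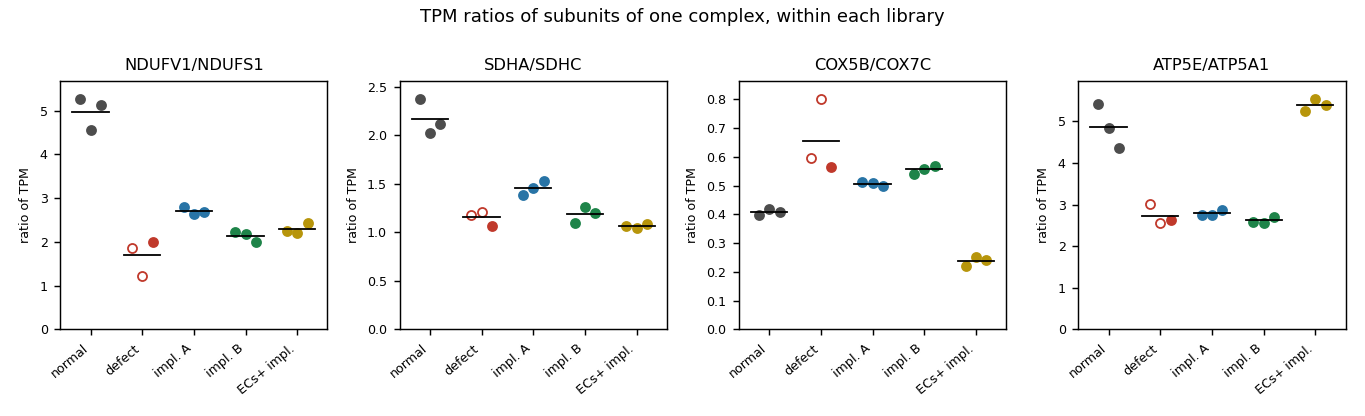
Ratios of TPM (y axis) between pairs of subunits of the same complex in the 15 libraries (points) of 5 groups (x axis), with group means as lines and hollow points for defect 1 and 2. NDUFV1/NDUFS1 and SDHA/SDHC are highest in the 3 normal libraries (means 4.98 and 2.17), COX5B/COX7C is lowest in ECs+, and ATP5E/ATP5A1 lies above 4.3 in normal and ECs+ and at or below 3.01 in the other groups.

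Complex V consists of the catalytic F1 head (ATP5A1 alpha, ATP5B beta, ATP5C1 gamma, ATP5D delta and ATP5E epsilon), a ring of c subunits in the membrane, and stalk and membrane subunits. In ECs+ against implantation B 11 of 17 members rose and 1 fell (64.7% and 5.88%, beside 37.8% and 38.1% of all genes). In defect against normal 10 rose and 2 fell, in implantation A against defect 11 fell, and in implantation A against normal 5 rose and 5 fell. The last were 29.4% each way, near the 32.2% and 32.3% of all genes, while the 58.8% higher in defect and the 64.7% lower in implantation A against defect stood beside 32% and 21.4%. ATP5S and ATP5SL match the symbol rule and are counted, but they are not subunits of the enzyme. ATP5S rose in ECs+ over implantation B by 0.87 ± 0.12 on the log2 scale, and ATP5SL had 0.02 ± 0.05.

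Within the F1 head the members diverged. ATP5A1 (chromosome 1, 95738789 to 95750835) had 134, 142 and 144 CPM in normal, 175, 184 and 180 in implantation A and 207, 206 and 203 in implantation B. In ECs+ it had 186, 188 and 187 CPM and in defect 173, 240 and 247. Every normal library was below all others. Against normal it rose by 0.78 ± 0.08 in defect, 0.35 ± 0.06 in implantation A, 0.55 ± 0.05 in implantation B and 0.41 ± 0.05 in ECs+ on the log2 scale, with edgeR adjusted p from 1.04e-17 to 2.08e-07, and in defect it passed without defect 3 too (0.58, adjusted p = 0.00455). In ECs+ against implantation B it fell by 0.17 ± 0.03 (adjusted p = 1.38e-06), which turned to 0.07 by library size alone. ATP5B had 0.52, 0.26, 0.46 and 0.43 against normal in the same order, each passing, and -0.06 ± 0.03 in ECs+ over implantation B (adjusted p = 0.0937, but 0.0469 without implantation B 1 and 0.00186 without ECs+ 1). Without defect 3 its defect value was 0.39 and did not pass (0.0716).

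ATP5E (chromosome 17, 59163085 to 59174488), in the same head, had 86.0, 82.8 and 73.9 CPM in normal, 54.2, 56.9 and 57.7 in implantation A and 59.2, 58.4 and 61.4 in implantation B. It had 99.5, 104 and 107 CPM in ECs+ and 51.4, 64.1 and 70.4 in defect. The normal and ECs+ libraries lay above those of the other 3 groups. The log2 fold change was -0.53 ± 0.06 in implantation A against normal (edgeR adjusted p = 1.72e-11), -0.44 ± 0.06 in implantation B against normal (1.43e-10) and 0.76 ± 0.04 in ECs+ against implantation B (2.77e-21). In defect against normal it was -0.22 ± 0.09 (0.0271), a call lost without normal 1 (adjusted p = 0.102), normal 2 (0.0815) or defect 3 (0.241). The TPM ratio of ATP5E to ATP5A1 was 4.36 to 5.43 in normal, 5.24 to 5.53 in ECs+ and 2.55 to 3.01 in the other 9 libraries. ATP5D resembled ATP5E in part, with -0.31 ± 0.06 and -0.26 ± 0.06 in implantation A and B against normal and 0.65 ± 0.04 in ECs+ over implantation B.

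In the stalk, ATP5O, the oligomycin sensitivity-conferring subunit (chromosome 13, 197509331 to 197519530), had 103, 107 and 105 CPM in ECs+ and 56.6, 56.4 and 58.1 in implantation B. Normal had 51.8, 58.9 and 56.8 CPM, implantation A 52.3, 52.8 and 49.6 and defect 60.7, 72.1 and 64.6. Only the ECs+ libraries stood well above the rest, with a log2 fold change of 0.84 ± 0.04 against implantation B (edgeR adjusted p = 2.1e-23). ATP5O did not pass in implantation A (-0.12, adjusted p = 0.113) or implantation B (0.03, 0.641) against normal, and passed in implantation A without normal 1 (-0.15, 0.0336). Its rise in defect (0.21, 0.0355) was -0.15 by library size alone and was lost without normal 1 (0.0694) or defect 3 (0.564). ATP5F1, the peripheral stalk subunit b under its older symbol, rose by 0.75 ± 0.10 in defect, 0.41 ± 0.07 in implantation A, 0.49 ± 0.06 in implantation B and 1.19 ± 0.06 in ECs+ against normal, and by 0.67 ± 0.05 in ECs+ over implantation B. Without defect 3 its defect value was 0.66 and did not pass (adjusted p = 0.135).

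ATP5G1, ATP5G2 and ATP5G3 encode the same mature c subunit behind different import sequences. ATP5G2 made up 42.9% to 47.1% of their summed TPM in normal and 43.6% to 44.0% in ECs+, but 36.6% to 38.3% in implantation A, 35.2% to 36.6% in implantation B and 23.5% to 34.6% in defect. ATP5G1 made up 20.4% to 22.6% in normal and 18.0% to 19.9% in ECs+, against 26.7% to 28.5% in implantation A and 26.1% to 28.0% in implantation B. For both genes the normal and ECs+ libraries did not overlap with those of implantation A and B. In ECs+ over implantation B ATP5G2 rose by 0.81 ± 0.04 (edgeR adjusted p = 1.75e-22) and ATP5G3 by 0.55 ± 0.05 (4.67e-13), while ATP5G1 had -0.08 ± 0.07 (0.319), or 0.16 by library size alone.

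**Figure D5:**
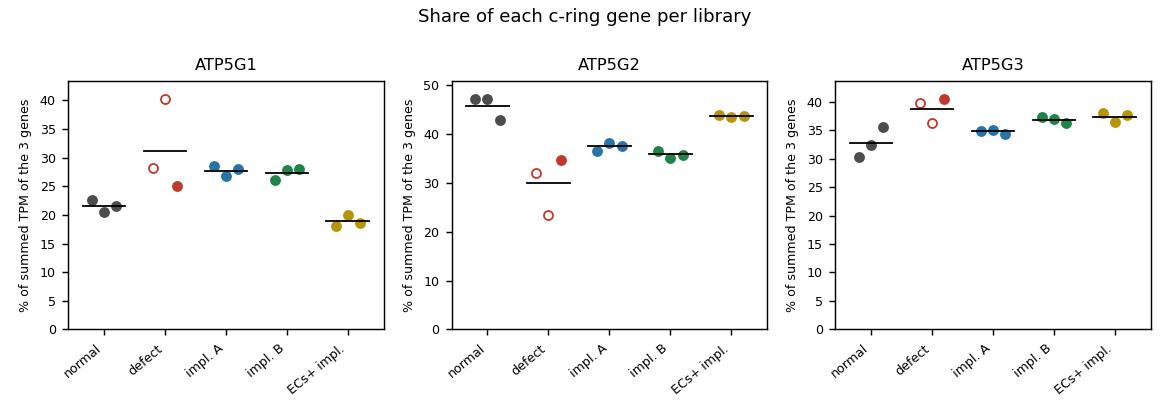
Percent of the summed TPM of ATP5G1, ATP5G2 and ATP5G3 (y axis) taken by each of these c-ring genes in the 15 libraries (points) of 5 groups (x axis), with group means as lines and hollow points for defect 1 and 2. ATP5G2 takes 42.9% to 47.1% in normal and 43.6% to 44.0% in ECs+, and less in each library of the other groups.

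Over all members, the group mean in TMM-scaled CPM was highest in ECs+ for 41 genes, in normal for 12, in defect for 10 and in implantation B for 5. It was lowest in normal for 28, in defect for 19, in implantation A for 14, in implantation B for 5 and in ECs+ for 2. These ranks hold for this scale only. The defect mean weighs defect 1 and 2, where the median member had 5 and 7 counts, as much as defect 3. Among the members that fell in each of the 4 groups against normal, also by library size alone, were NDUFV1, NDUFV3, NDUFA10, NDUFS8 and SDHA. Among those that rose in each of them, also by library size alone, were NDUFS1, NDUFB6, UQCRB, ATP5A1, ATP5B and ATP5F1. The 4 comparisons share the normal libraries.

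Other mitochondrial genes were counted in lists next to the subunits. In ECs+ against implantation B, 37.8% of all genes were called higher and 38.1% lower. Of 77 mitochondrial ribosomal proteins 49 rose and 6 fell (63.6% and 7.79%), and of 30 assembly factors 15 and 7 (50% and 23.3%). Of 14 fatty acid oxidation genes 11 rose and 1 fell (78.6% and 7.14%). The 16 genes of the citric acid cycle and pyruvate dehydrogenase split into 6 and 6, or 37.5% each way, near the shares of all genes. The medians were 0.31, 0.31, 0.41 and -0.02, beside 0.02 for all genes. Of 23 import, carrier and chaperone genes 12 rose and 5 fell (52.2% and 21.7%, median 0.19). Of 14 genes for the mobile carriers ubiquinone and cytochrome c 6 rose and 2 fell (42.9% and 14.3%, median 0.20). The 15 biogenesis regulators, TFAM among them, had 6 higher and 7 lower (40% and 46.7%, median -0.27). In implantation A against normal the mitochondrial ribosomal proteins had 5 higher and 27 lower, and in defect against normal 11 and 19. The shares lower, 35.1% and 24.7%, were near and below those of all genes (32.3% and 31.9%), and the shares higher, 6.49% and 14.3%, were below them (32.2% and 32%). The genes named next were picked as leading genes of their lists and need not be typical of them. COQ8A, a kinase-like protein needed for ubiquinone synthesis, rose by 3.18 ± 0.04 in ECs+ over implantation B and fell by 1.87 ± 0.06 in implantation A against normal on the log2 scale. CPT1A, which commits fatty acids to mitochondrial import, fell in defect (-1.80 ± 0.09) and implantation A (-1.86 ± 0.06) against normal and rose by 1.07 ± 0.04 in ECs+ over implantation B. TFAM, a factor that packages and transcribes mitochondrial DNA, rose by 1.43 ± 0.16 in defect and 1.03 ± 0.12 in implantation A, and fell by 1.62 ± 0.12 in ECs+ over implantation B (edgeR adjusted p = 1.32e-17), against the direction of most subunits there.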

How the data were processed

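The authors deposited raw gene counts and TPM values for 26654 genes. Per the submitters' processing notes, fastp, HISAT2, HTSeq, DESeq2 and the build Sscrofa11.1 were used; settings, strand use and how TPM was made are not given in the sources used here. Per the labels, libraries were made with the TruSeq RNA Library Prep Kit v2. Where genes overlap, on one strand or both, their reads may therefore be mixed. Symbols are the tables' own. Each of 67 members matched 1 RefSeq entry, and NDUFA4 matched 2. Coordinates are RefSeq's for that build.

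The deposited counts were tested with edgeR 4.0.16 in R 4.3.3: filterByExpr, TMM, glmQLFit (robust), glmQLFTest, two-sided, Benjamini-Hochberg over all genes tested, threshold 0.05. Implantation A, defect and normal shared a fit of 9 libraries, ECs+ and B one of 6; B and ECs+ against normal used all 15. SEs are Wald errors of the fit, and p-values come from the F test. Recovery was tested on simulated data. Alternatives were other scalings and filters, DESeq2 1.42.0, limma 3.58.1 (voom with quality weights; trend on log2 of TPM plus 1 or 0.1), thinning, a replicate block, other sets of libraries and leaving out each library. The members and lists were chosen with earlier results of these data known. Named genes were 23 chosen symbols, where in the table (1 is not reported here), the 2 largest rises and falls per complex and comparison, members against the majority of their complex, and up to 3 leading genes per other list; further members are named as chosen after their values were seen.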

Additional observations from a re-analysis of the deposited data

How the results depend on the processing

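Counts of members called are given as higher and lower. Defect against normal gave 30 and 9, and became 11 and 25 by library size, 16 higher with DESeq2, 10 and 3 with voom, 16 higher on TPM with either pseudocount, and 2 and 2 after thinning. Implantation A against defect gave 1 and 30, and became 2 higher with DESeq2's size factors in edgeR, 11 and 1 by library size, 0 and 7 with DESeq2, 0 and 0 with voom or after thinning, 4 and 0 on TPM, 0 higher at 0.01, and 4 higher with 6 libraries. Implantation A against normal gave 17 and 20, and became 5 higher with DESeq2, 10 and 2 on TPM plus 1, 9 and 2 on TPM plus 0.1, and 0 and 1 after thinning. ECs+ against implantation B gave 44 and 5, and became 2 lower by library size, 13 lower on TPM, 3 lower at 0.01 or with all 15 libraries, and 6 and 2 after thinning. Implantation B against normal gave 28 and 21, and became 9 and 36 by library size, 17 higher with DESeq2, 13 and 11 on TPM, and 2 and 3 after thinning. ECs+ against normal gave 45 and 10, and became 22 higher on TPM, and 8 and 0 after thinning.

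Leaving out 1 library gave, in the same order, 2 to 32 and 4 to 11, 0 to 1 and 0 to 31, 14 to 18 and 17 to 21, 42 to 45 and 3 to 7, 14 to 29 and 17 to 30, and 41 to 46 and 8 to 16. The extremes came without defect 3, normal 2 or normal 3 where they moved most. No pairing by replicate number was visible (correlations of same-numbered deviations from -0.067 to 0.081, of the others from -0.094 to 0.11). If the libraries differ mainly by technical variation, this check could miss a pairing, so it excludes none. With the replicate block, implantation A against defect had 0 higher, and no other count moved by over 1.5 times.

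Among the genes chosen by the naming rule, log2 fold changes that changed sign by library size were, for ECs+ against implantation B, ATP5A1 0.065, ATP5B 0.18, COX6A1 0.19, NDUFB10 0.088 and NDUFS3 0.044. For defect against normal they were ATP5O -0.15, NDUFB8 -0.24 and SDHB -0.12, for implantation A against defect ATP5B 0.031 and SDHB 0.063, and for implantation B against normal ATP5O -0.28, COX6A1 -0.28, COX6C -0.019, COX7A2 -0.070, NDUFB8 -0.14 and SDHB -0.21. On TPM plus 1 or 0.1 they were NDUFV1 -0.0225 and -0.0229 (ECs+ against implantation B) and, for implantation A against defect, ATP5J2 0.0445 and 0.0448, SDHB 0.0289 and 0.0294, and SDHD 0.18 and 0.19. After thinning they were SDHA -0.46 (ECs+ against implantation B), NDUFB8 -0.22 (ECs+ against normal), ATP5E 0.23 (defect against normal), ATP5O 0.14 (implantation A against defect) and COX7C 0.024 (implantation A against normal). Leaving out 1 library, with the reversal without defect 3, gave SDHD -0.0047 to 0.61 (defect against normal) and, for implantation A against defect, ATP5J2 -0.54 to 0.13 and SDHD -0.33 to 0.24. With the reversal without normal 3, it gave COX6A1 -0.11 to 0.054 in ECs+, and COX6A1 -0.16 to 0.11 and NDUFB8 -0.047 to 0.20 in implantation B. Over all members, 8 of the calls in defect against normal and 10 of those in implantation A against defect changed sign without defect 3. The cause was not tested. Thinning to 207769 counts leaves few counts per member.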
